A study of Saccharomyces cerevisiae with 12 samples.

Results

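Of the 6388 gene probes on the arrays, 9 carried the symbol of a gene that spares iron or moves iron between internal stores, and all 9 were measured. They were chosen by name for their roles, with earlier results of these data known, and each gene had 1 probe printed in 2 spots. TIS11 (YLR136C, also called CTH2) spares iron, SMF3 (YLR034C), FTH1 (YBR207W) and FET5 (YFL041W) act in export of iron from the vacuole, MRS4 (YKR052C), HMX1 (YLR205C), ISU1 (YPL135W) and ISU2 (YOR226C) act in iron use and heme turnover, and CCC1 (YLR220W) acts in vacuolar storage.

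Each of 12 two-colour arrays set RNA from wild-type yeast, strain BY4742 and mating type alpha, against a common reference RNA from a single wild-type culture. The medium (synthetic complete, 2% glucose) had first been used by another culture for 2 doublings and filtered, and the wild-type cells then doubled 2 times in it, to ask whether the used medium itself changes expression. In set 2 the medium came from cells lacking BUR2 (bur2 medium), cells lacking CHO2 (cho2 medium) or wild-type cells, and in set 1 from cells lacking CBF1 (cbf1 medium), cells lacking NPL3 (npl3 medium) or wild-type cells. Of the deleted genes, BUR2 encodes a cyclin that acts in transcription, CHO2 a methyltransferase of phospholipid synthesis, CBF1 a DNA-binding factor of sulfur amino acid genes, and NPL3 a protein that binds mRNA and takes part in its export. All the RNA analysed came from cells that carried none of these deletions, so the deletion reached them only through the medium. Each of the 6 groups had 2 arrays, the first with the sample in Cy3 and the second with the sample in Cy5. The reference culture's medium is not given in the sources used here. The series speaks of independent cultures where the study's methods speak of dye-swapped replicates. Whether the 2 arrays of a group hold 2 cultures or 1 RNA labelled in both dyes is therefore open, and n counts arrays. The p-values and SEs measure the spread between arrays of the same medium. If those arrays hold 1 RNA, the spread between cultures is not in any SE, interval or p-value given here.

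In budding yeast the transcription factors Aft1 and Aft2 switch on the iron regulon when iron is short. Its products bring iron into the cell, release iron from the vacuole, recycle it from heme, and, through the RNA-binding protein Tis11, promote the decay of mRNAs that encode iron-using proteins. Storage runs the other way: Ccc1 carries iron into the vacuole, and its gene is under the control of Yap5, which responds to high iron.

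Over all gene spots, 74.8% to 78.6% were over 2 times their background in both channels on the 6 arrays of set 2, and 81.0% to 84.7% on the 6 arrays of set 1. Across probes, r between both arrays of a medium was 0.667 to 0.817. As a check of the strain, 4 alpha-specific genes were at medians of 44.4 to 233 times background, 4 a-specific genes at 1.54 to 2.18, and 4 genes deleted in this strain at 1.11 to 3.86, the highest being HIS3. Ratios are relative to the other probes of an array, so a change in the amount of mRNA per cell that touched all genes would not be seen.

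The 9 probes differed in how well they were measured. The SMF3, FTH1, FET5, MRS4, ISU1, ISU2 and CCC1 spots were over 2 times background in both channels on all arrays. For TIS11 the sample channel was at 1.35 to 1.65 times background in set 2, where 0 of 12 spots passed 2 times background, and at 2.42 to 4.89 times background in set 1, where 12 of 12 passed. The TIS11 reference channel passed in all spots of both sets, at 2.55 to 3.83 times background in set 2 and 4.20 to 5.19 in set 1. HMX1 had 0 of 12 spots over 2 times background in either channel in set 2 and 5 of 12 over it in both channels in set 1. The TIS11 level in set 2 is therefore only bounded, and the size of its log2 ratio depends on the background offset.

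**Figure D1:**
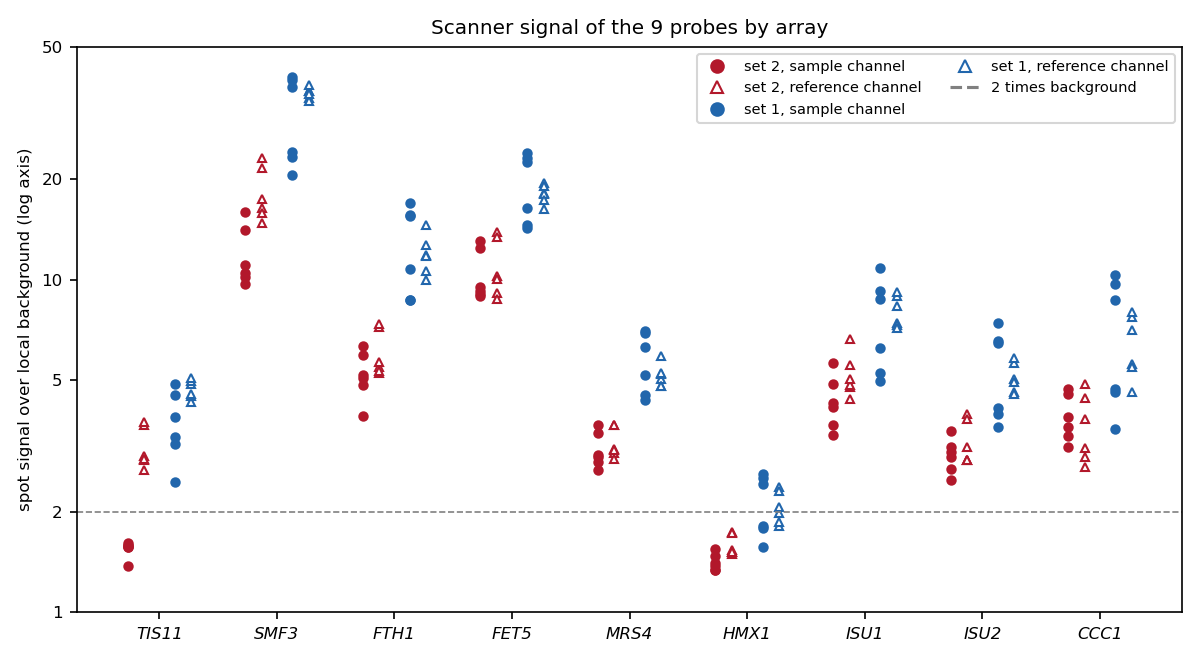
Spot signal over local background (log axis) of each of the 9 probes, with 1 point per array and channel (mean of 2 spots), set 2 in red and set 1 in blue. The dashed line marks 2 times background. The TIS11 sample channel lies under it on all 6 arrays of set 2, and HMX1 lies under it in both channels of set 2.

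TIS11, whose product binds AU-rich elements in mRNAs of iron-using proteins, was below the reference on all 12 arrays. Its log2 ratios (sample over reference) were -0.999 and -1.07 in bur2 medium, -1.06 and -1.003 in cho2 medium and -1.06 and -1.07 in wild-type medium of set 2. In set 1 they were -0.64 and -0.66 in cbf1 medium, -0.25 and -0.28 in npl3 medium and -0.44 and -0.40 in wild-type medium. The arrays of the sets did not overlap, and within set 1 the 3 media were also apart, with cbf1 medium lowest and npl3 medium highest. The difference of set 2 from set 1 was -0.60 ± 0.023 on the log2 scale (SE, 6 arrays each, adjusted p = 4.66e-06). This SE holds the spread between arrays of the same medium and leaves out the spread between the 3 media of a set. The TIS11 means of the set 1 media ran from -0.65 in cbf1 medium to -0.27 in npl3 medium. The SEs and p-values of the other genes between sets have the same limit. Since the sample channel of set 2 was not well above background, only bounds on the mean signal of TIS11 are given. In the samples TIS11 was at least 1.29-fold lower in set 2 than in set 1, and at least 1.7-fold lower in set 2 than in the reference. The lowest signal of the probes over 2 times background stands for the floor. The bound of 1.29 compares sample-channel means of the sets, not ratios to the reference. Neither bound allows for the spread between arrays.

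SMF3, an Nramp-family exporter of iron from the vacuole, was well above background on every array, at 8.59 to 16.2 times in set 2 and 20.2 to 41.9 times in set 1 in the sample channel. Its log2 ratios were -0.90 and -0.68 in bur2 medium, -0.83 and -0.65 in cho2 medium and -0.81 and -0.57 in wild-type medium of set 2. In set 1 they were -0.57 and -0.32 in cbf1 medium, -0.34 and -0.16 in npl3 medium and -0.46 and -0.18 in wild-type medium. All 12 values were below the reference, and the highest of set 2 came close to the lowest of set 1 without overlap. The second array of each group, with the sample in Cy5, was the higher one throughout, and the fitted dye effect of SMF3 was 0.22 ± 0.021 (adjusted p = 5.49e-04). Set 2 differed from set 1 by -0.40 ± 0.021 (adjusted p = 3.53e-05), which is 0.756 times the level of set 1.

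FTH1 and FET5 encode the permease and the multicopper oxidase of the vacuolar iron export complex. FTH1 had log2 ratios of -0.36 and -0.37 in bur2 medium, -0.33 and -0.34 in cho2 medium and -0.40 and -0.22 in wild-type medium of set 2, against -0.15 and -0.056 in cbf1 medium, -0.050 and -0.021 in npl3 medium and -0.13 and 0.019 in wild-type medium of set 1. For FET5 the values were -0.27 and -0.16 in bur2 medium, -0.25 and -0.17 in cho2 medium and -0.22 and -0.12 in wild-type medium of set 2, against -0.14 and -0.034 in cbf1 medium, -0.055 and 0.023 in npl3 medium and -0.13 and -0.040 in wild-type medium of set 1. The FTH1 arrays of the sets were apart, whereas 2 FET5 arrays of set 1 lay within the range of set 2. Both genes were lower in set 2, with differences of set 2 minus set 1 of -0.27 ± 0.030 for FTH1 (adjusted p = 0.0025) and -0.14 ± 0.017 for FET5 (adjusted p = 0.00371).

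MRS4, a carrier of iron across the inner mitochondrial membrane, was below the reference in set 2 and on both sides of it in set 1. It had log2 ratios of -0.21 and -0.14 in bur2 medium, -0.21 and -0.17 in cho2 medium and -0.22 and -0.18 in wild-type medium of set 2, against -0.056 and 0.039 in cbf1 medium, 0.038 and 0.11 in npl3 medium and -0.026 and 0.033 in wild-type medium of set 1. All 6 arrays of set 2 were below the reference and below every array of set 1, of which 2 were below the reference. The difference of set 2 from set 1 was -0.21 ± 0.018 (adjusted p = 8.76e-04).

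HMX1 encodes heme oxygenase, which frees iron from heme. Its log2 ratios were -0.26 and -0.15 in bur2 medium, -0.28 and -0.15 in cho2 medium and -0.24 and -0.12 in wild-type medium of set 2, against -0.16 and -0.19 in cbf1 medium, -0.056 and 0.044 in npl3 medium and -0.047 and -0.017 in wild-type medium of set 1. Both cbf1 arrays lay among those of set 2, and the other 4 arrays of set 1 were higher. The fitted difference of set 2 from set 1 was -0.13 ± 0.027 (adjusted p = 0.0269), but with both channels under 2 times background in set 2 no fold is given, and the call was lost in 9 of the 12 fits that left out 1 array (adjusted p up to 0.0788).

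ISU1 and ISU2 encode the scaffold proteins on which iron-sulfur clusters are built. ISU1 had log2 ratios of -0.31 and -0.33 in bur2 medium, -0.42 and -0.52 in cho2 medium and -0.46 and -0.43 in wild-type medium of set 2, against -0.31 and -0.18 in cbf1 medium, -0.34 and -0.17 in npl3 medium and -0.15 and -0.39 in wild-type medium of set 1. The 12 ISU1 values were all below the reference, and the 2 wild-type arrays of set 1 were the lowest and the highest of that set. ISU2 was at -0.21 and -0.25 in bur2 medium, -0.22 and -0.28 in cho2 medium and -0.24 and -0.17 in wild-type medium of set 2, against -0.20 and -0.095 in cbf1 medium, -0.076 and -0.18 in npl3 medium and -0.15 and 0.057 in wild-type medium of set 1. The sets overlapped for both genes. Neither passed the test between sets, with differences of -0.15 (95% interval -0.27 to -0.036, adjusted p = 0.0932) for ISU1 and -0.12 (-0.21 to -0.025, adjusted p = 0.103) for ISU2. Without the second array of wild-type medium of set 1 ISU1 was called lower in set 2 (adjusted p = 0.0285), and without the first array of that medium ISU2 was (adjusted p = 0.0189). The 2 genes are close relatives and the probe sequences were not used here, so binding of one transcript to the probe of the other cannot be judged.

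CCC1, the importer that stores iron in the vacuole, was the only one of the 9 genes with a positive difference of set 2 from set 1. Its log2 ratios were -0.15 and 0.034 in bur2 medium, -0.16 and 0.12 in cho2 medium and -0.078 and 0.059 in wild-type medium of set 2, against -0.15 and 0.0040 in cbf1 medium, -0.19 and -0.029 in npl3 medium and -0.19 and 0.00088 in wild-type medium of set 1. The first array was the lower one in every group, and the sets overlapped over most of their range. Its fitted dye effect was 0.18 ± 0.023 (adjusted p = 0.00115), larger than its difference between sets of 0.064 ± 0.023 (95% interval 0.012 to 0.12, adjusted p = 0.108).

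**Figure D2:**
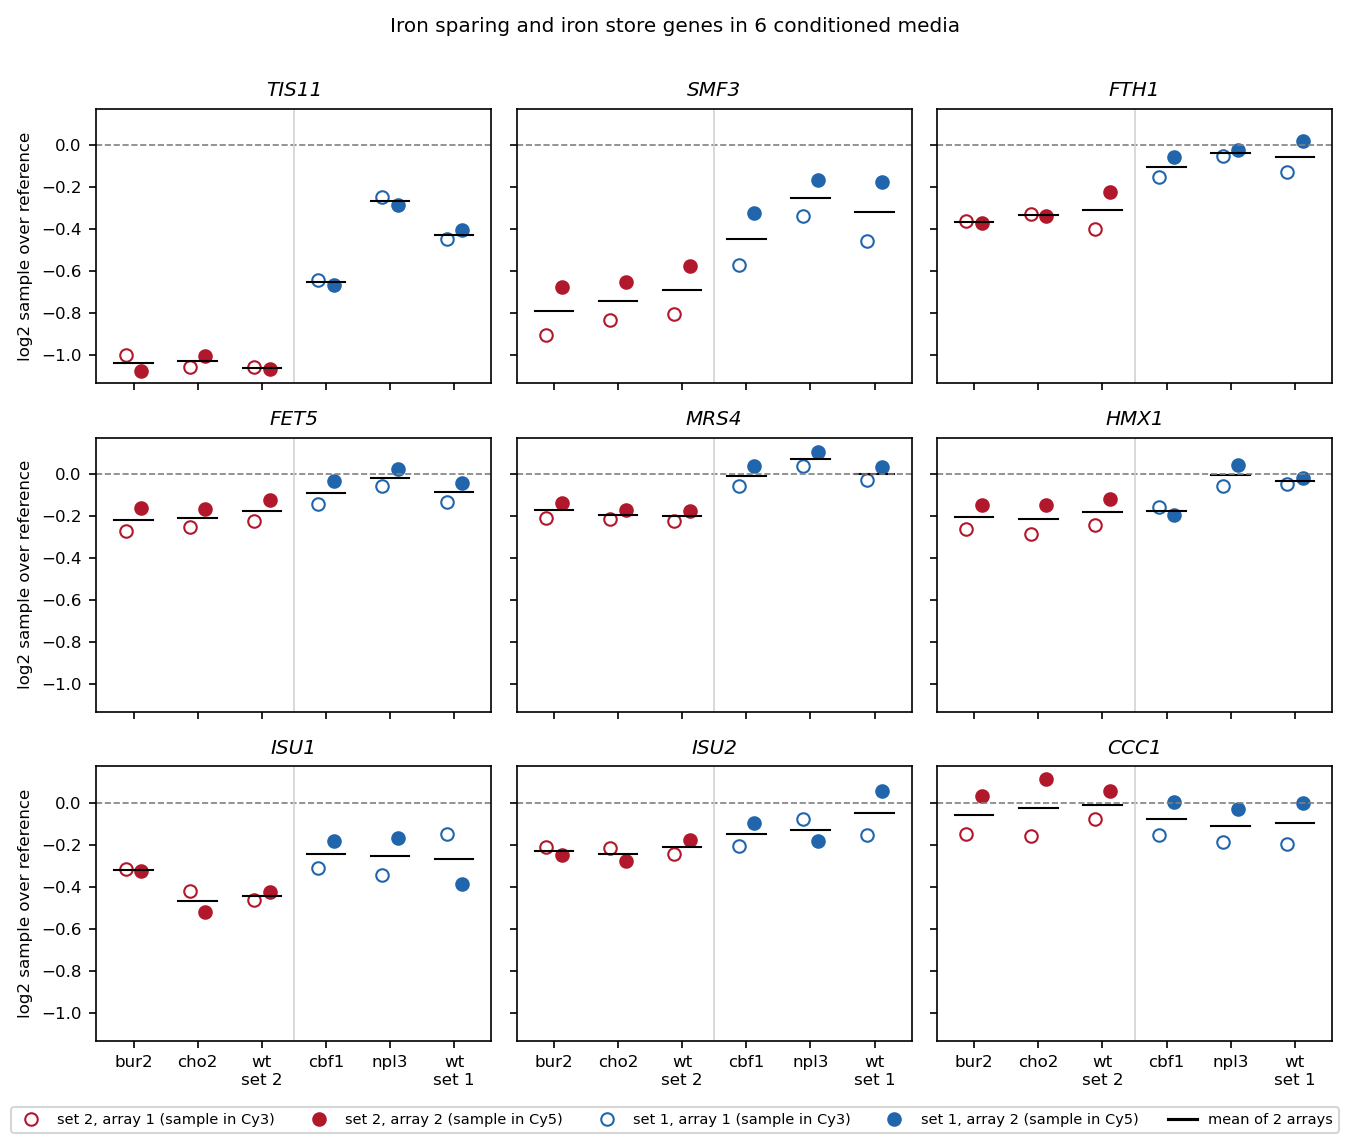
Log2 ratio of sample over reference for each of the 9 genes on each of the 12 arrays (open, sample in Cy3, filled, sample in Cy5), with the mean of the 2 arrays of a medium as a bar, set 2 in red and set 1 in blue. For TIS11, SMF3, FTH1 and MRS4 all arrays of set 2 lie below all arrays of set 1.

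Against the reference RNA, which is 1 culture whose own spread is not measured, 8 of the 9 genes were lower in each medium of set 2, and CCC1 did not pass. The 8 include HMX1, whose channels were both under 2 times background in set 2, so a lower level is not established for it. Across all probes 15.2% were lower in bur2 medium, 17.4% in cho2 medium and 14.2% in wild-type medium of set 2. In set 1, 6 of 9 were lower in cbf1 medium (20% of all probes), 4 were lower (19.9%) and MRS4 was higher (23.2%) in npl3 medium, and 5 were lower in wild-type medium (19.1%). Below the reference on all 12 arrays were TIS11, SMF3 and ISU1, beside 15.1% of all probes. TIS11, SMF3 and ISU1 were called lower in all 6 media, SMF3 by means of -0.79 in bur2 medium to -0.25 in npl3 medium. FTH1 was called in the 3 media of set 2, with means of -0.37 in bur2 medium, -0.33 in cho2 medium and -0.31 in wild-type medium, and was at -0.10 in cbf1 medium (adjusted p = 0.0513). CCC1 was called lower in npl3 medium (-0.11 ± 0.028, adjusted p = 0.0138) and in wild-type medium of set 1 (-0.096 ± 0.028, adjusted p = 0.0245). These tests share the reference, and the media of a set may share their handling, so they are not independent of each other.

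Between the sets, 6 of the 9 genes were lower in set 2 and none was higher, beside 9.88% of all probes called in either direction and 5.28% called lower. The 6 include HMX1, with both channels under 2 times background in set 2. The 9 differences had a median of -0.15, beside -0.0048 over all probes. Non-overlapping arrays, lower in set 2, were seen for 4 of the 9 genes and for 1.83% of all probes. The calls of TIS11, SMF3, FTH1, FET5 and MRS4 held whichever array was left out. With a background offset of 10 in place of 50, the TIS11 difference was -1.13 and that of HMX1 was -0.31, while SMF3 stayed at -0.44. Set 2 and set 1 hold different media, and everything else that differed between the sets, the lower signal of set 2 included, cannot be told apart from the set.

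The wild-type media alone, with 2 arrays each, allow the comparison of sets without any deletion strain. TIS11 was lower in wild-type medium of set 2 than in that of set 1, with a difference of -0.64 ± 0.039 (set 2 minus set 1, adjusted p = 2.78e-04), and SMF3 was lower as well, at -0.37 ± 0.037 (adjusted p = 0.00475). These 2 of 9 stood beside 0.235% of all probes called in either direction and 0.219% called lower. FTH1 at -0.26 (adjusted p = 0.217) and MRS4 at -0.20 (adjusted p = 0.063) did not pass. With the array number as a block within each set, MRS4 was also called (adjusted p = 0.0355) and the number of probes called was 33 in place of 15. With an offset of 10 the TIS11 difference was -1.17. Leaving out either wild-type array of set 2 ended the SMF3 call (adjusted p = 0.0912 and 0.0772).

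**Figure D3:**
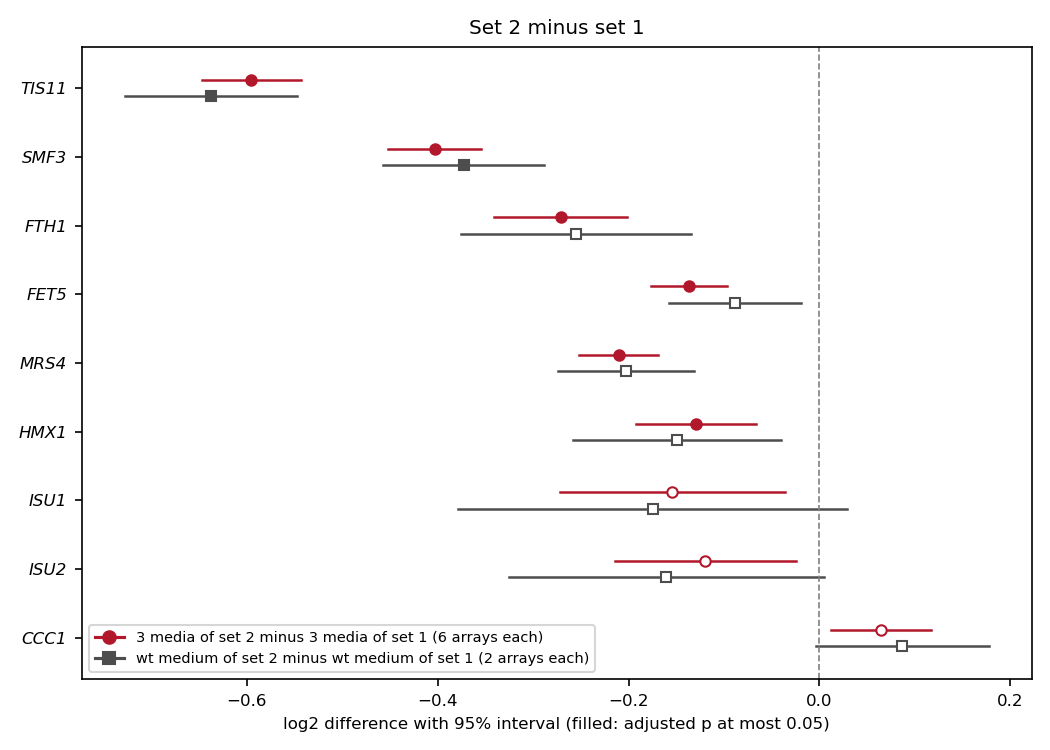
Differences of set 2 minus set 1 on the log2 scale for the 9 genes, with 95% intervals, over the 3 media of each set (red, 6 arrays each) and for the wild-type media alone (grey, 2 arrays each). Filled symbols have an adjusted p of at most 0.05, which holds for 6 genes over the 3 media and for TIS11 and SMF3 in the wild-type media. The intervals hold the spread between arrays of the same medium, not that between the 3 media of a set.

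Within set 1 the question was whether the used media differ. TIS11 was lower in cbf1 medium than in npl3 medium, with a difference of -0.39 ± 0.039 on the log2 scale (0.764 times, 95% interval -0.48 to -0.30, adjusted p = 0.0383), and had the smallest p of all probes. It was 1 of the 2 probes called (0.0313% of all probes). The other was SIT1, a transporter of iron-bound siderophores, at -0.47 ± 0.051 (adjusted p = 0.0383). On arrays of the same dye TIS11 differed between cbf1 and npl3 medium by -0.39 and -0.38. The call did not hold under median centring (adjusted p = 1.00), loess per print tip (0.0586), without the dye term (0.092), with the array number as a block within each set (0.0562), on the 6 arrays of set 1 alone (0.757), or in 10 of the 12 fits without 1 array (adjusted p of 0.0791 to 0.679), whereas its size stayed at -0.40 to -0.37 without 1 array.

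Other genes lay on the same side without passing the adjusted limit. SMF3 was at -0.20 ± 0.037 in cbf1 medium relative to npl3 medium (unadjusted p = 6.20e-04, adjusted p = 0.66) and HMX1 at -0.17 ± 0.047 (unadjusted p = 0.00686), or -0.28 with an offset of 10. MRS4 was at -0.081 ± 0.031 and FET5 at -0.073 ± 0.030, with unadjusted p of 0.0301 and 0.0402. With TIS11 these were 5 of 9 with an unadjusted p under 0.05, beside 1.5% of all probes. Of the 5, HMX1 was dim, with 5 of its 12 spots of set 1 over 2 times background in both channels. Its difference ran from -0.24 to -0.10 when 1 array was left out, the latter without the second cbf1 array. FTH1 (-0.069, 95% interval -0.19 to 0.052), ISU2 (-0.022, -0.19 to 0.14), ISU1 (0.0091, -0.19 to 0.21) and CCC1 (0.034, -0.057 to 0.12) had intervals on both sides of 0.

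Against the wild-type medium of set 1, no gene of the 9 and no other probe passed in either medium. In limma 85 of all probes had an unadjusted p under 0.05 for cbf1 medium and 181 for npl3 medium, or 1.33% and 2.83%, with 0% called after adjustment in both. For cbf1 medium TIS11 was at -0.23 ± 0.039 (unadjusted p = 3.54e-04), SMF3 at -0.13 ± 0.037 (0.00716) and HMX1 at -0.14 ± 0.047 (0.0157), or -0.24 with an offset of 10. The dim HMX1 probe ran from -0.21 to -0.074 in this comparison when 1 array was left out. For npl3 medium TIS11 was at 0.16 ± 0.039 (unadjusted p = 0.00338) and FET5 at 0.070 ± 0.030 (0.0471). TIS11 in wild-type medium thus lay between the other 2 media, and both comparisons share the same wild-type arrays. ISU1 had the widest intervals, -0.18 to 0.23 for cbf1 medium and -0.19 to 0.22 for npl3 medium.

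In set 2 the 9 genes differed little between media, and 0% of probes were called in any of its 3 comparisons, with 242 (3.79%) at an unadjusted p under 0.05 for bur2 medium against wild-type medium, 126 (1.97%) for cho2 medium against wild-type medium and 532 (8.33%) for bur2 medium against cho2 medium. SMF3 was at -0.10 ± 0.037 in bur2 medium relative to wild-type medium (95% interval -0.19 to -0.018, unadjusted p = 0.0233), the only one of the 9 genes with an unadjusted p under 0.05 in these 3 comparisons. TIS11 was at 0.025 in bur2 medium (-0.065 to 0.12) and 0.033 in cho2 medium (-0.057 to 0.12) relative to wild-type medium, with the sample channel under 2 times background in all 3 media. The largest difference of the 9 genes between bur2 and cho2 medium was that of ISU1, at 0.15 (-0.054 to 0.35, adjusted p = 0.7). A 1.7-fold change is 0.77 on the log2 scale, and all 54 intervals of the 9 genes over the 6 comparisons within sets, at the offset of 50, lay inside it, between -0.48 and 0.35. For TIS11 and HMX1 in set 2 this cannot decide whether a fall of that size took place. Their sample channels were under 2 times background there, and the offset draws dim ratios towards 0.

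Over both sets, the 4 deletion-strain media against both wild-type media gave no call (0% of probes, with 184, or 2.88%, at an unadjusted p under 0.05). Among the 9 genes SMF3 was at -0.055 ± 0.022 (unadjusted p = 0.0393), and TIS11, with its opposite values in cbf1 and npl3 medium, was at -0.0026 (95% interval -0.058 to 0.053). The effect of deletion-strain media did not differ detectably between the sets for any of the 9 genes, with 0% of probes called and 54 (0.845%) under an unadjusted p of 0.05. Of the 9 genes FET5 came nearest, at -0.073 ± 0.037 for set 2 minus set 1 (-0.16 to 0.012, unadjusted p = 0.082).

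**Figure D4:**
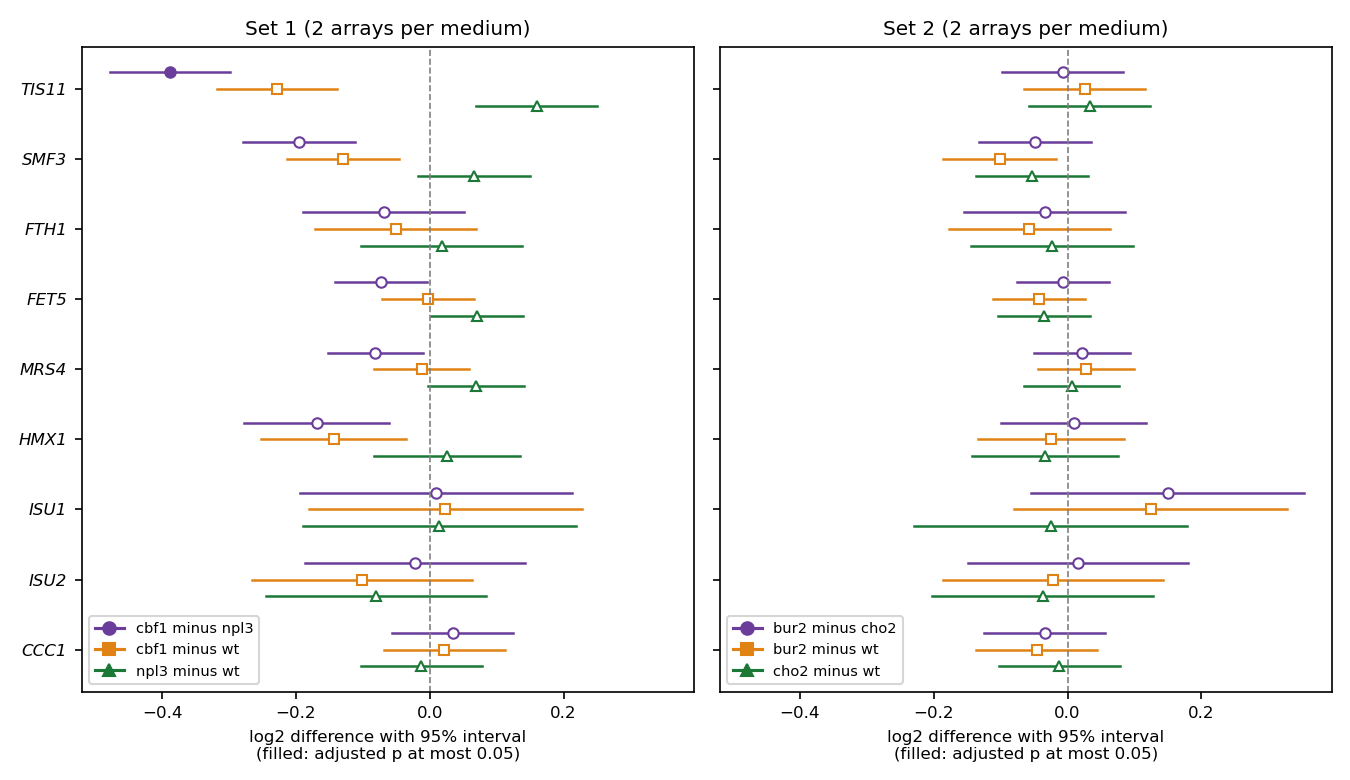
Differences between media within set 1 (left) and within set 2 (right) on the log2 scale for the 9 genes, with 95% intervals, 2 arrays per medium. The filled symbol has an adjusted p of at most 0.05 and is TIS11 in cbf1 medium minus npl3 medium, and the comparisons of a set share arrays.

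The rest of iron metabolism was taken from 5 lists of other genes. Of 15 genes of high-affinity iron uptake, 12 were lower in set 2 than in set 1 and none was higher, with a median difference of -0.49, beside 5.28% of all probes called lower. SIT1 was at -1.49 ± 0.029 (adjusted p = 8.02e-08), FET3, the cell-surface multicopper oxidase, at -1.34 ± 0.047 and FTR1, its permease partner, at -0.95 ± 0.033 (adjusted p = 2.89e-06 for both). FET5 and FTH1, the vacuolar counterparts of FET3 and FTR1, were lower in set 2 as well, by the values given above. Of 8 iron regulators 3 were lower, which were AFT1, the activator of the regulon, at -0.28 ± 0.022 (adjusted p = 5.11e-04), FRA1, part of the Aft1 inhibitor complex, at -0.12 ± 0.022 and YAP5 at -0.15 ± 0.036.

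The lists of genes that use iron held few calls. Of 29 genes for iron-containing proteins, the kind of mRNA on which Tis11 acts, 2 were lower and 2 higher in set 2, with a median difference of 0.034. Over all probes 5.28% were called lower and 4.6% higher, so these counts, like the 1 of 14 assembly genes given next, are near the share of all probes and are no result about the lists. Those higher were CTT1, a heme catalase, at 0.39 ± 0.065 (adjusted p = 0.0118) and CYC1, cytochrome c, at 0.14 ± 0.035 (adjusted p = 0.0417). Those lower were ERG3, a sterol desaturase, at -0.18 ± 0.031 (adjusted p = 0.0135) and OLE1, a fatty acid desaturase named to complete the count after its value was seen, at -0.25 ± 0.063. Of 14 genes of iron-sulfur cluster assembly other than ISU1 and ISU2, 1 was lower, MGE1, a mitochondrial chaperone cofactor, at -0.12 ± 0.026 (adjusted p = 0.0273), with a median of -0.0084 for the list. Of 10 other metal transporters 4 were lower, among them FRE6, a vacuolar metalloreductase, at -0.23 ± 0.029, CTR2, a vacuolar copper transporter, at -0.23 ± 0.030 and COT1, a vacuolar zinc and cobalt transporter, at -0.29 ± 0.038, whereas MRS3, the close relative of MRS4, was at -0.0046 ± 0.031 (adjusted p = 0.942, named for its kinship after its value was seen).

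In the wild-type media alone, 7 of the 15 iron uptake genes were lower in set 2 than in set 1, AFT1 was the only regulator called (-0.32 ± 0.038, adjusted p = 0.0153), and 0 genes of the other 3 lists passed. Across all probes 0.219% were called lower there and 0.235% in either direction. The regulators FRA1 at -0.12 ± 0.039 and GRX4, on the other side at 0.21 ± 0.066, did not pass (adjusted p = 0.384 and 0.387). Between cbf1 and npl3 medium all 15 iron uptake genes had differences below 0, with a median of -0.19, and SIT1 alone was called, while FTR1 was at -0.31 ± 0.057 (adjusted p = 0.66) and ARN2, another siderophore transporter, at -0.25 ± 0.049 (adjusted p = 0.724). Over all probes 50.5% had a difference below 0 in the comparison of cbf1 and npl3 medium, and 0.0313% were called. The 29 iron-containing proteins, 14 assembly genes, 10 transporters and 8 regulators held no call there, with medians of 0.0094, -6.8e-05, -0.043 and -0.035 in that order.

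**Figure D5:**
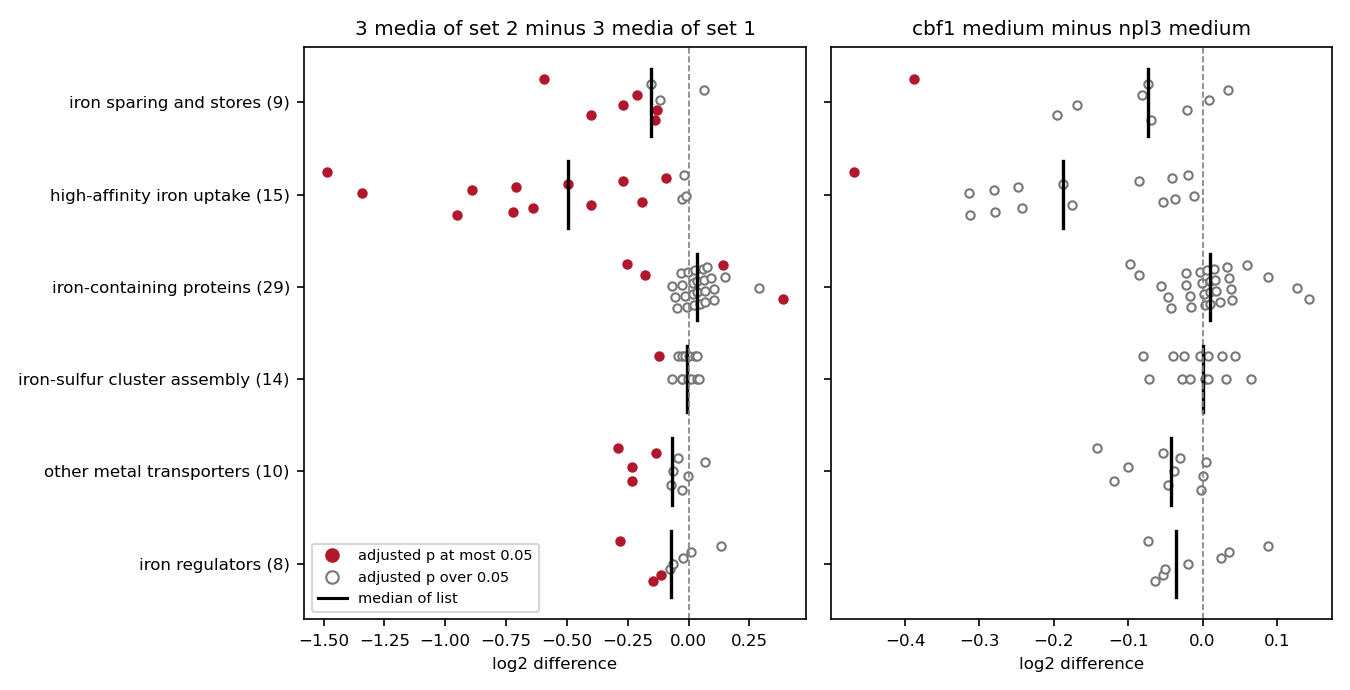
Log2 differences of each gene of 6 lists (number of genes in brackets) for set 2 minus set 1 (left) and cbf1 medium minus npl3 medium (right), with the median of a list as a bar and genes with an adjusted p of at most 0.05 filled. The horizontal axes differ between panels, and the vertical scatter has no meaning. Iron sparing and uptake genes lie mostly below 0, and iron-containing proteins lie on both sides.

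The probes whose pattern over the 12 arrays was most like that of TIS11, after the fitted dye effect was removed, were ARN2, SIT1, SMF3, ARN1 and FTR1, with r of 0.985, 0.978, 0.977, 0.975 and 0.975. Since the arrays form 2 clusters by set, the means of the sets were also removed, and the 5 nearest were then ARN2 (0.889), SIT1 (0.883), CRZ1 (0.871), FTR1 (0.819) and SMF3 (0.810). All points share the reference RNA, and these values are descriptions without a test. In set 2 the TIS11 sample channel was under 2 times background, and the SD of its ratios was 0.033, against 0.175 in set 1. With the set means removed, likeness to TIS11 thus rests mostly on the arrays of set 1. Those arrays also gave the calls of TIS11 and SIT1 between cbf1 and npl3 medium. SMF3 had TIS11 as its nearest fellow gene, at rank 5 of 6387 other probes with the set means in and rank 8 with them removed. SMF3 in turn was the probe most like FET5, at rank 1 with the set means in (r = 0.974) and rank 5 with them removed (r = 0.798). MRS4 and HMX1 had TIS11 nearest, at ranks 15 and 28 with the set means removed, whereas the nearest fellow of ISU1 stood at rank 1881 and that of CCC1 at rank 3724. For FTH1 the nearest fellow was SMF3 at rank 159, and for ISU2 it was FTH1 at rank 211, also with the set means removed. By this measure ISU1 and CCC1 followed none of the other 8 genes closely within sets.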

How the data were processed

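Wild-type cells grown in 6 media were profiled on 12 two-colour arrays against a common reference. The deposited scanner files hold mean intensity and local background of 15552 spots per channel, with no normalization by the authors. A deposited table of log2 ratios, made by the authors with loess per print tip (span 0.4), no background subtraction and correction of gene-specific dye bias, served as an alternative. Its columns followed the scanner ratios with r of 0.901 to 0.973 in 11 cases and -0.913 in 1 (cho2 medium, first array), which was turned, and had medians of -0.0022 to 0.0071. The submitters' processing notes name limma 2.12.0. A further table of the authors' own comparisons, with log2 ratios and p-values, was not used.

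In R 4.3.3 with limma 3.58.1, intensities were background-corrected (normexp, offset 50, which draws dim ratios towards 0) and normalized within each array by loess (span 0.3) after 2776 control spots were left out. The 2 spots of each of 6388 probes were averaged, of which 5326 had 1 symbol in GEO's platform annotation and 1062 had none. Locus names are those of RefSeq's table for assembly R64. One linear model with 6 groups and a dye term (5 residual and 3.29 prior degrees of freedom) gave moderated two-sided tests, with Benjamini-Hochberg adjustment over all 6388 probes of a comparison and a limit of 0.05. "Called" means past that limit, and intervals are 95%. Only the linear model and the calling were tested on simulated log2 ratios, not the background correction, loess or averaging of spots. For cbf1 against npl3 medium, 15% of simulated 1.1-fold changes, 80% of 1.2-fold and 100% of 1.5-fold changes were called.

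Array number coincides with dye in every group. Deviations of arrays of the same number from their group means correlated with r of 0.31 to 0.82 within sets (6 pairs of groups) and 0.32 to 0.66 across sets (9 pairs), so the number was also fitted as a block within each set. The alternatives were no background subtraction, an offset of 10, loess per print tip, median centring, the authors' log2 ratios, leaving out the darkest 25% of probes, no dye term, that block, leaving out each array, and fits on the 6 arrays of a set. All 9 genes are named in the text, with the 5 probes most like TIS11. From the lists, up to 3 genes of smallest p were named, not for every list in every comparison. Genes and lists were chosen with earlier results of these data known. The files name no genome build, so no coordinates are given.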

Additional observations from a re-analysis of the deposited data

Results flagged for a closer look

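For TIS11 the effects of cbf1 and npl3 medium against the wild-type medium of set 1 differed, by -0.39 on the log2 scale (cbf1 minus npl3, adjusted p = 0.0383 in limma), with the limits given in the report. For SMF3 both cbf1 arrays were below the wild-type array of the same dye, by -0.11 and -0.15, and both npl3 arrays were above it, by 0.12 and 0.012. The difference of SMF3 between cbf1 and npl3 medium was -0.20, and it did not pass the adjusted limit (adjusted p = 0.66).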

How the results depend on the processing

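The calls of TIS11, SMF3, FTH1 and MRS4 between sets held under every alternative run and without any 1 array, as did the TIS11 call between the wild-type media. Between sets, FET5 was lost without the dye term (adjusted p = 0.136), HMX1 without the dye term (0.160) and with median centring (0.0515), while ISU1 was called with an offset of 10 (0.0478) and ISU2 on the authors' ratios (0.0482). Leaving out the darkest 25% of probes removed HMX1, which then has no value. SMF3 between the wild-type media was lost without the dye term, leaving 1 gene of the 9.

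Probes called between sets numbered 277 with median centring and 99 without the dye term, against 631, and 57.9% of calls were higher in set 2 with an offset of 10, against 46.6%. Between the wild-type media 31.8% of calls were higher in set 2 on the authors' ratios, 18.8% without background subtraction and 48.5% (16 of 33) with the replicate block, against 6.67% (1 of 15). MRS4 was called there with the replicate block. For cbf1 against npl3 medium, 1 probe was called with an offset of 10, on the authors' ratios and with the replicate block, and 0 with loess per print tip, with median centring, without the dye term and on the 6 arrays of the set. TIS11 was lost, leaving 0 of the 9 genes, in those last 4 fits and with the replicate block. Apart from this call and that of MRS4 between the wild-type media, the block changed no call of the 9 genes in the 5 comparisons followed. Between bur2 and cho2 medium 3 probes were called on the authors' ratios. Against the reference without the dye term, 1168 probes were called in bur2, 1250 in cho2, 1017 in wild-type medium of set 2, 1645 in cbf1, 1689 in npl3 and 1553 in wild-type medium of set 1. Of the 9 genes, 3 were called in npl3 medium with median centring and on the authors' ratios and 2 without the dye term, and 3 in wild-type medium of set 1 with median centring and without the dye term. In cbf1 medium 4 to 7 were called over the alternatives, the fewest with median centring. Over the same fits 1689 to 3124 probes were called in npl3 medium, in either direction, and 1645 to 3122 in cbf1 medium. In wild-type medium of set 1 the range was 1553 to 3045 probes. Beside such shares, the counts in npl3 medium and wild-type medium of set 1 are not read as a result about the 9 genes. Smaller moves of other counts are not listed. Against wild-type medium, differences near 0 changed sign. In cbf1 medium FET5 was at 0.026 and CCC1 at -0.0017 with loess per print tip, and at 0.022 and -0.0059 on the authors' ratios, where ISU1 in npl3 medium was at -0.013. The causes were not tested.

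Leaving out each array in turn, 199 (without the first npl3 array) to 1288 (without the first wild-type array of set 1) probes and 5 to 7 of the 9 genes were called between sets, and 6 to 161 probes and 1 to 2 genes between the wild-type media. For cbf1 against npl3 medium the ranges were 0 to 3 probes and 0 to 1 gene, for npl3 against wild-type medium 0 to 36 probes, for cbf1 0 to 2, for bur2 0 to 25, for cho2 0 to 1, for bur2 against cho2 medium 0 to 9, for the pooled media 0 to 1 and for the difference of effects 0 to 1. Against the reference they were 823 to 2446 probes and 5 to 8 genes in bur2, 1045 to 2652 and 7 to 8 in cho2, 770 to 2365 and 6 to 8 in wild-type medium of set 2, 1489 to 2977 and 3 to 7 in cbf1, 1147 to 2941 and 2 to 6 in npl3 and 1398 to 2556 and 2 to 5 in wild-type medium of set 1. Differences that crossed 0 were, in cbf1 against wild-type medium, FET5 (-0.011 to 0.0046), MRS4 (-0.031 to 0.0066), ISU1 (-0.12 to 0.17) and ISU2 (-0.21 to 0.0063), in npl3 against wild-type medium FTH1 (-0.026 to 0.062), HMX1 (-0.0031 to 0.055), ISU1 (-0.13 to 0.16), ISU2 (-0.19 to 0.028) and CCC1 (-0.027 to 0.0023), and in cbf1 against npl3 medium ISU1 (-0.097 to 0.12) and ISU2 (-0.10 to 0.060). Signal over background limits TIS11 and HMX1 in set 2.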
